A study of Mus musculus with 3 samples.

Results

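The proteasome genes were taken as every row of the count table whose gene symbol starts with Psma, Psmb, Psmc, Psmd, Psme, Psmf or Psmg and a digit, leaving out Psmb8 and Psmb9. That gave 49 of the 24028 gene identifiers. They were counted in skin papillomas, benign tumours of the epidermis, from C57BL/6 mice given DMBA (a carcinogen) and then TPA (a tumour promoter). There were 3 libraries, 1 per genotype, each from 3 pooled tumours. The first was from Tg46 transgenic mice, which express galectin-7 constitutively under the Keratin-14 promoter, active in basal keratinocytes. Another was from Lgals7-/- mice, which lack galectin-7, a lectin of stratified epithelia. The last was from wild-type mice with their endogenous galectin-7. The set was chosen by gene name and by the Psmd7 counts of these same libraries, which stood apart, so the values below are descriptions of the libraries. With 1 library per genotype no difference has a replicate check.

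The proteasome degrades proteins tagged with ubiquitin. Its barrel-shaped 20S core is built of alpha (Psma) and beta (Psmb) subunits, with the proteolytic sites in beta subunits. The 19S regulatory particle caps the core. Its base contains a ring of ATPases (Psmc) that unfold substrates, and its lid, made of non-ATPase subunits (Psmd), removes the ubiquitin chain. Other activators (Psme) and an inhibitor (Psmf1) bind the same core, and dedicated chaperones (Psmg) assemble it. Subunits of the complex are needed in fixed proportions, and every nucleated cell, keratinocytes included, makes the standard ones. The set also holds subunits that are not standard, such as Psmb11 of the thymic proteasome. In the papilloma libraries a single subunit, Psmd7, held many reads in both galectin-7 mutants and few in wild-type, whereas the other 48 genes together stood at similar levels in all 3 libraries.

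Total counts were 354499 in Tg46, 312600 in Lgals7-/- and 172011 in wild-type, and 9928, 10041 and 5541 genes reached 10 counts. A gene at 0 counts could lie at up to 8.95 CPM (counts scaled to library size with TMM factors) in Tg46, 9.11 in Lgals7-/- and 17.4 in wild-type, the level of 3 counts. Intervals and floors cover counting error only, since PCR copies of a molecule cannot be recognised. In pooled tumour tissue, fewer cells of a type and less RNA per cell cannot be told apart. The targeted gene, Lgals7, held 4 counts in Tg46, 2 in Lgals7-/- and 0 in wild-type, too few to check the genotype labels. The 8 keratinocyte markers were all detected, with summed counts of 505 in Tg46, 450 in Lgals7-/- and 122 in wild-type. Exons of 11 members share bases with a gene of the other strand, and 9 of these 11 reached 10 counts in a library. No source used here states a strand setting, so such counts may belong to either gene. Psmd7 has no such overlap in the GENCODE annotation.

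Promoter sequence is shown first for the members whose count ratio to wild-type was at least 2-fold up with an interval excluding 1. There were 5 such members, and RefSeq windows (GRCm38.p6) of the 250 bases before the annotated start were at hand for 4 of them: Psmc1, Psmd1, Psmd6 and Psme4. GENCODE M21 places the start of each gene further upstream than RefSeq does, so that 48 of the 250 bases for Psmc1, 39 for Psmd6, 49 for Psme4 and 232 for Psmd1 lie inside the GENCODE gene. Each line gives, 5′ to 3′, the part of the window before the GENCODE start, which for Psmd1 was too short to show. Capitals mark CCGGAA on either strand, a core recognised by ETS transcription factors.
Psmc1 (chr12:100109952-100110153, plus strand): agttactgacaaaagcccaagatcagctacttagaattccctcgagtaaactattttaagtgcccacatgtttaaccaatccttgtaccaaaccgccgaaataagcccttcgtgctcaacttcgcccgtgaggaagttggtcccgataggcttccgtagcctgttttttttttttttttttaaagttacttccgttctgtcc
Psmd6 (chr14:14120985-14121195, minus strand): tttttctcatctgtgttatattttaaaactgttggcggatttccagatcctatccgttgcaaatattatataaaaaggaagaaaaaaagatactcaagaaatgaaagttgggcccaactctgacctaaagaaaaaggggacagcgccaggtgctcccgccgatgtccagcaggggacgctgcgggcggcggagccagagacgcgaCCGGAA
Psme4 (chr11:30771525-30771725, plus strand): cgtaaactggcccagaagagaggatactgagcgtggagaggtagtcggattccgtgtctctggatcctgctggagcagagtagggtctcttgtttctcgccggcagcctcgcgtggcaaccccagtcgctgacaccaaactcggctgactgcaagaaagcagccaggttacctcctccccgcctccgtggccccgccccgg
In the stretches shown, Psmd6 had 1 match, and Psmc1 and Psme4 had 0. In the whole windows Psmc1 and Psmd6 had 1 match each, Psme4 had 2 and Psmd1 had 0. Over all members, 19 of 45 windows (42.2%, from 41 genes with an entry) held CCGGAA, against 12% of all 32851 windows. The members' windows were not matched to the others on base composition. The antioxidant response element core TGACNNNGC, bound by the factors Nfe2l1 and Nfe2l2 that drive proteasome genes, was found on either strand in 11.1% of member windows and 10.2% of all windows. CCAAT was found in 33.3% and 33.8%. These 3 motifs were searched on both strands after member values were known, and a match describes letters in the window, not a bound site. CCGGAA also occurred upstream of members that were not higher, Psma5 and Psmd11 among them.

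Psmd7 (Entrez 17463) encodes a lid subunit, known as Rpn8 in yeast, whose MPN domain pairs with that of the deubiquitinating subunit Psmd14. It lies on chromosome 8 from 107580381 to 107588464, minus strand, mm10, with 7 merged exons spanning 2261 bases. Psmd7 had 308 counts in Tg46 and 266 in Lgals7-/-, against 16 in wild-type. Both mutant libraries stood far above wild-type and close to each other. Transcripts that are abundant in most tissues held far fewer reads, Actb 13, 13 and 3 and Gapdh 4, 5 and 0 in Tg46, Lgals7-/- and wild-type. Counts here therefore do not follow usual transcript abundance, and whether all reads counted for Psmd7 came from its transcripts was not tested. On the scaled level this was 919 CPM in Tg46, 808 CPM in Lgals7-/- and 92.6 CPM in wild-type. The Tg46 library was 9.64-fold higher than wild-type (95% interval 6.01 to 17.6), and the Lgals7-/- library 8.48-fold higher (5.27 to 15.5). Both ratios share the 16 wild-type counts as their denominator. Between the mutants the ratio of Tg46 to Lgals7-/- was 1.14 (0.962 to 1.35), an interval that includes 1. The mutants carry opposite changes in galectin-7, the one with a transgene and the other with a deletion.

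Within its library Psmd7 ranked 79th of 24028 by count in Tg46, 46th in Lgals7-/- and 2457th in wild-type. It took 0.0869% of all counts in Tg46, 0.0851% in Lgals7-/- and 0.0093% in wild-type. Among the 49 proteasome genes it held 41.2% of the counts in Tg46 (exact 95% interval 37.7 to 44.9), 38.3% in Lgals7-/- (34.6 to 42.0) and 6.02% in wild-type (3.48 to 9.58). Of all genes called higher than wild-type, ranked by the lower bound of the interval, it was number 3 of 1768 in Tg46 and number 2 of 1715 in Lgals7-/-. The gene was chosen by these values, which are no test of it. The scatter of ratio against counts shows how far it lies from the other members.

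**Figure D1:**
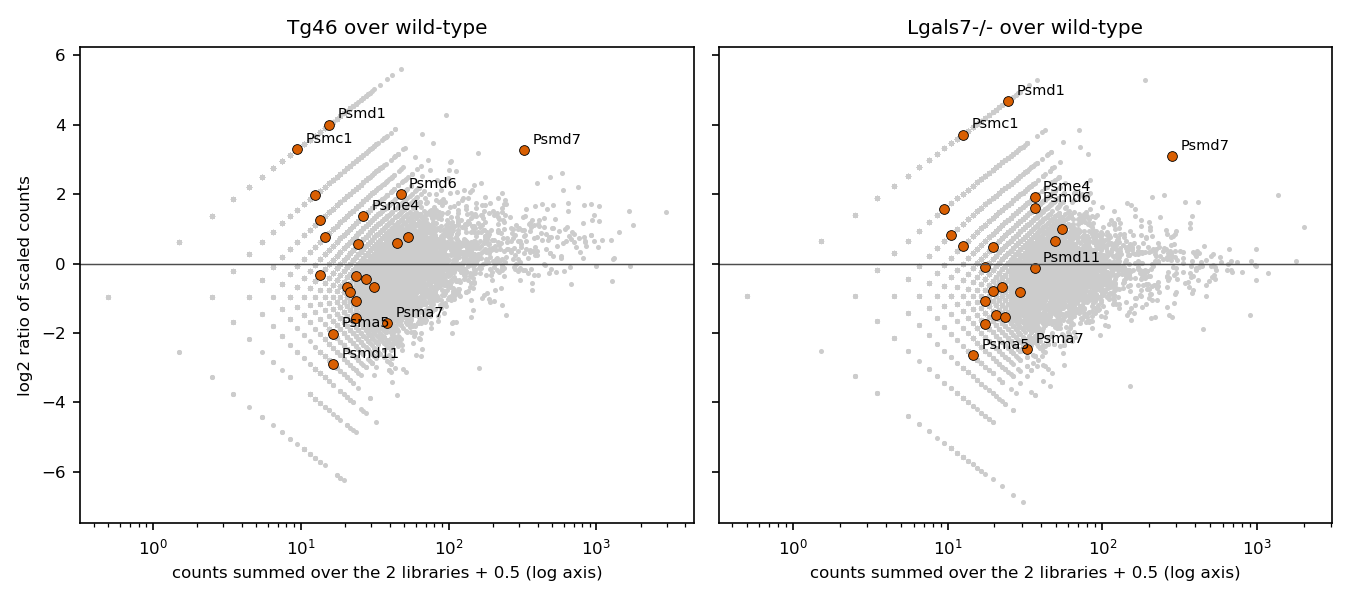
Each grey point is a gene with at least 10 counts in a library and each orange point a proteasome member. The vertical axis is the log2 ratio to wild-type and the horizontal axis the counts summed over both libraries plus 0.5 on a log scale. Psmd7 lies at 3.27 in Tg46 and 3.08 in Lgals7-/-, far to the right of the other members with large ratios.

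The genes around Psmd7 on chromosome 8 are given for comparison. The nearest protein-coding neighbour, Wwp2, a ubiquitin ligase 21786 bases away, had 32 counts in Tg46, 29 in Lgals7-/- and 18 in wild-type. Its ratio to wild-type was 0.906 in Tg46 (0.499 to 1.73) and 0.837 in Lgals7-/- (0.454 to 1.62). On the other side Zfhx3, a transcription factor gene 354180 bases away, had 49, 37 and 33 counts in Tg46, Lgals7-/- and wild-type. Nqo1, a quinone reductase and classical target of Nfe2l2, held 2, 5 and 0. Of the 10 genes flanking Psmd7, 5 on each side, 4 reached 10 counts and were compared, and 0 of these 4 were called in any of the 3 comparisons, in which between 7.73% and 13.9% of all genes were called in each direction. The other 6 held too few counts to be compared.

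**Figure D2:**
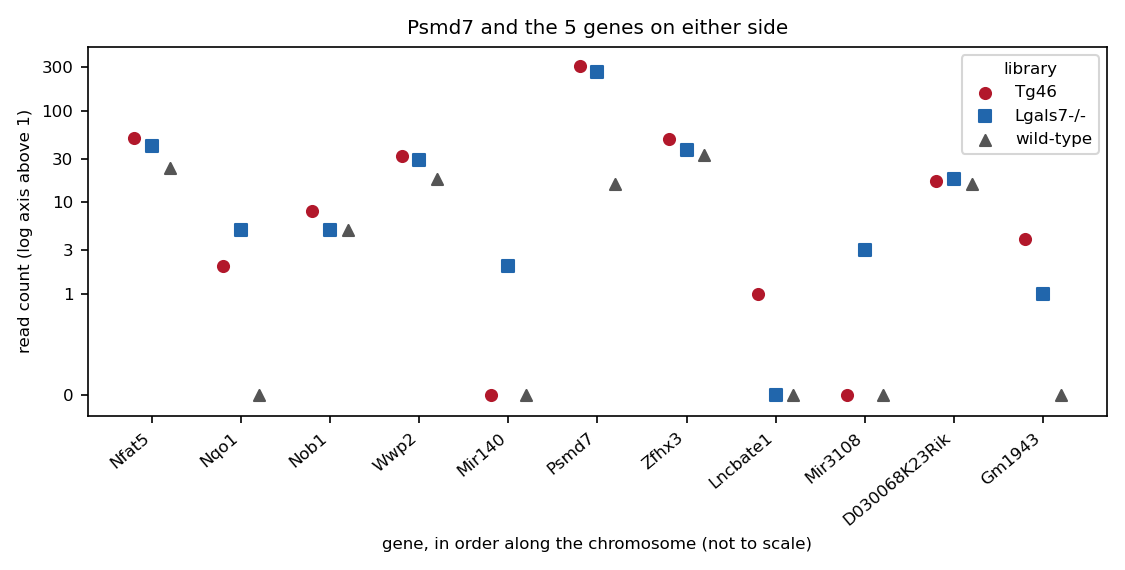
Read counts of Psmd7 and of the 5 genes on either side are plotted in chromosomal order, 1 symbol per library, on an axis that is logarithmic above 1. Only Psmd7 separates Tg46 (308) and Lgals7-/- (266) from wild-type (16) by more than an order of magnitude in counts.

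Over the whole set, 22 of the 49 members reached 10 counts in at least 1 library and were compared. The other 27 held 0 to 9 counts in every library and are described by their sums. A member was called higher or lower where its ratio, with 0.5 counts added to each library, was at least 2-fold and its exact interval excluded 1. In Tg46 over wild-type 4 of the 22 were called higher, where 13.7% of all 12940 genes compared were, and 4 lower, where 13.9% were. In Lgals7-/- over wild-type 5 were called higher, against 13.3% of all genes, and 5 lower, against 13.7%. In Tg46 over Lgals7-/- 0 were called higher, against 8.43% of all genes, and 1 lower, against 7.73%. A member could enter the comparison through a high count in 1 library alone, and that also favours a call. The rule for the set used these contrasts, so nothing is read from the shares. The median log2 ratio of the 22 members was 0.11 in Tg46 over wild-type and 0.18 in Lgals7-/- over wild-type, beside 0.11 and 0.10 over all genes. In Tg46 over Lgals7-/- it was 0.22, beside -0.026 over all genes. Without Psmd7 these medians were -0.33, -0.11 and 0.25. The medians of this even number of members lie midway between a negative and a positive value against wild-type, so leaving out any member above them would lower them likewise. With no filter on counts they were -0.22 and -0.11 against wild-type.

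**Figure D3:**
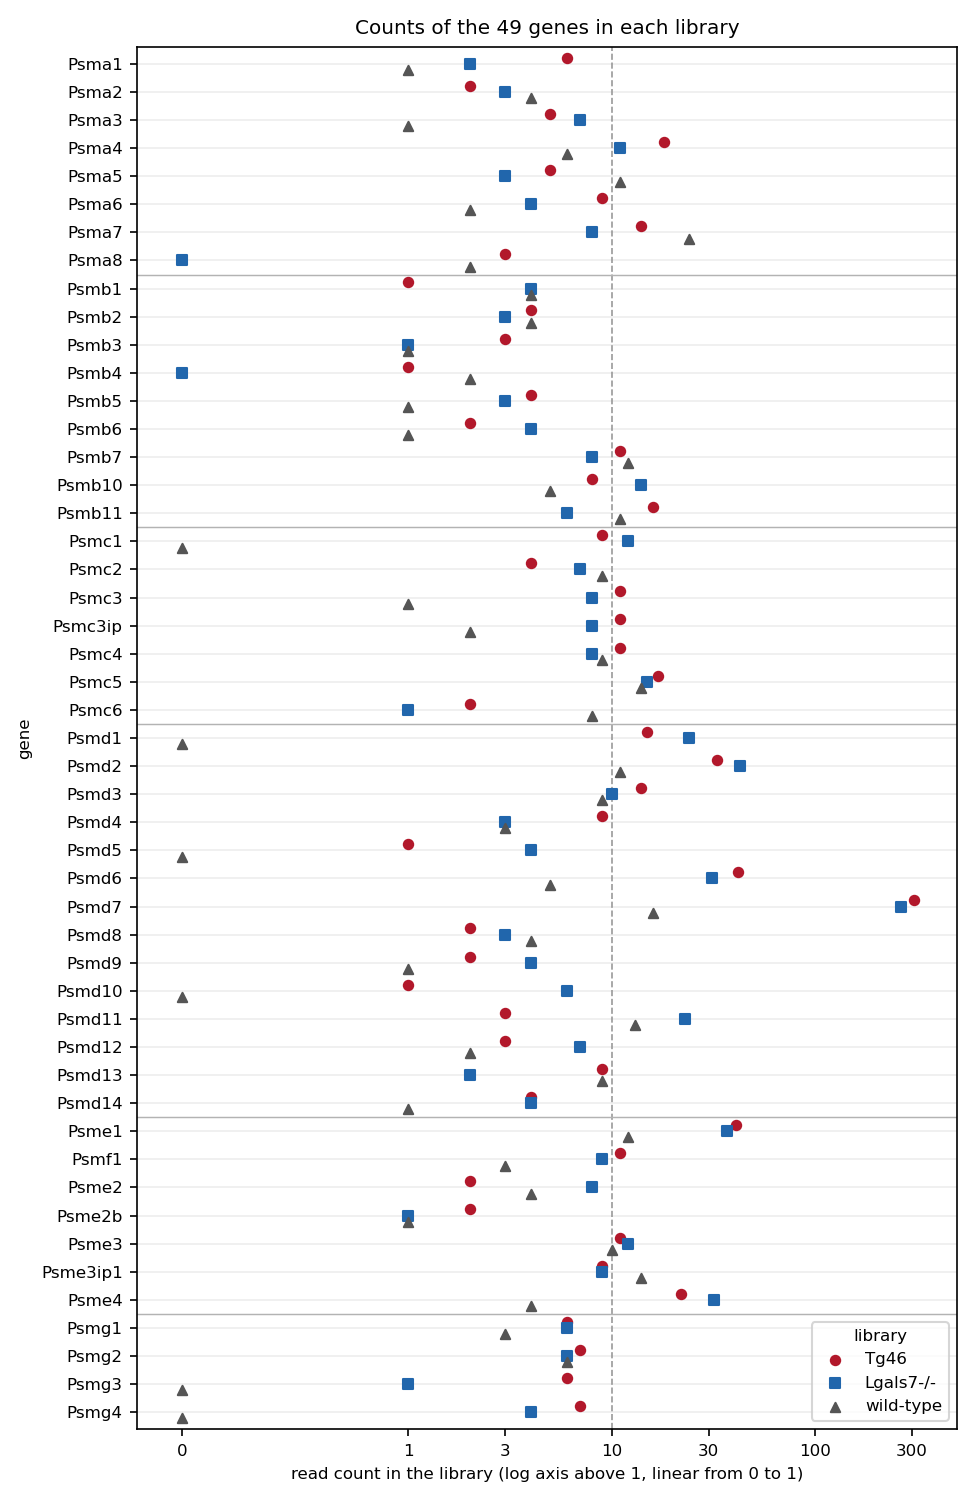
Read counts of all 49 genes are plotted by name group, with 1 symbol per library, on an axis that is logarithmic above 1. The dashed line marks 10 counts. Psmd7 is the only member above 50 counts in any library.

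Summing counts over members gave tighter values than single genes. All 49 members together held 747 counts in Tg46, 695 in Lgals7-/- and 266 in wild-type. Without Psmd7 the sums were 439 in Tg46, 429 in Lgals7-/- and 250 in wild-type. The level of these 48 genes was then 1310 CPM in Tg46, 1303 CPM in Lgals7-/- and 1447 CPM in wild-type. The ratio to wild-type was 0.905 in Tg46 (0.773 to 1.06) and 0.901 in Lgals7-/- (0.769 to 1.06), and Tg46 over Lgals7-/- was 1.01 (0.878 to 1.15). With Psmd7 included the ratios were 1.45 (1.26 to 1.67) in Tg46 and 1.37 (1.19 to 1.59) in Lgals7-/-. The intervals of the summed ratio to wild-type lay above 1 with Psmd7 and included 1 without it. Psmd7 was chosen by these counts, so leaving it out was bound to lower both ratios.

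**Figure D4:**
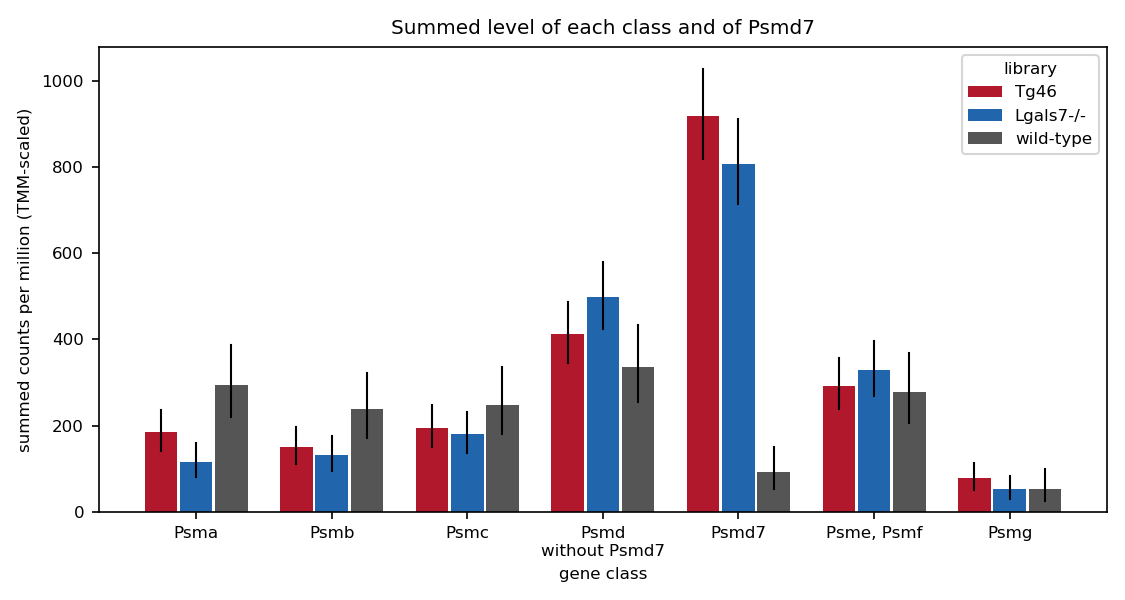
Bars give the summed CPM of each name group and of Psmd7 in Tg46, Lgals7-/- and wild-type, and black lines the exact 95% Poisson intervals. Psmd7 stands at 919, 808 and 92.6 CPM, above any whole group of the other genes in both mutants.

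Levels per length placed Psmd7 against its partners. The level of Psmd7 was 406 CPM per kb of exon in Tg46 and 357 in Lgals7-/-, and 41.0 in wild-type. The next level in Tg46 was that of Psme1 at 55.4 CPM per kb, which was also next in Lgals7-/- at 50.9. In wild-type Psmd7 was number 4, below Psmc5 at 58.1, Psma5 at 48.2 and Psma7 at 45.2 CPM per kb. The median level of all 49 members was 7.95 CPM per kb in Tg46, 7.57 in Lgals7-/- and 7.57 in wild-type. For scale, 1492 odorant, vomeronasal, taste and trace amine receptor genes, which skin is not known to express widely, pooled to 2.37, 2.56 and 3.25 CPM per kb in Tg46, Lgals7-/- and wild-type. The exact interval of a member lay above that receptor level for 29 members in Tg46, 26 in Lgals7-/- and 22 in wild-type, Psmd7 among them each time. It lay below for 1 member in Tg46 (Psmd5), 0 in Lgals7-/- and 2 in wild-type (Psmd1 and Psmd5). For the others the counts could not be told apart from that level at this depth. Single receptor genes reached higher than their pooled level. Their 95th percentile was 10.4 CPM per kb in Tg46, 13.2 in Lgals7-/- and 20.1 in wild-type. The levels of 19, 12 and 8 members lay above it in these libraries.

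The other lid subunits of the set, which was chosen by gene name, did not follow Psmd7 as a group. The set holds 7 of them: Psmd3, Psmd6, Psmd8, Psmd11, Psmd12, Psmd13 and Psmd14. They summed to 77 counts in Tg46, 80 in Lgals7-/- and 43 in wild-type. Their summed ratio to wild-type was 0.923 in Tg46 (0.628 to 1.37) and 0.977 in Lgals7-/- (0.666 to 1.45). Psmd14, the deubiquitinase that pairs with Psmd7, held 4 counts in Tg46, 4 in Lgals7-/- and 1 in wild-type. Its intervals over wild-type, 0.204 to 102 in Tg46 and 0.208 to 103 in Lgals7-/-, include both 1 and the Psmd7 ratios. Psmd6, a PCI-domain lid subunit (chromosome 14, 14112174 to 14120984, minus strand), was the closest to Psmd7 in direction. It had 42 counts in Tg46, 31 in Lgals7-/- and 5 in wild-type. That is a ratio to wild-type of 3.98 in Tg46 (1.72 to 14) and 3.01 in Lgals7-/- (1.25 to 10.7). Psmd11, another PCI-domain subunit (chromosome 11, 80428615 to 80473248, plus strand), went the other way in the transgenic library alone. It had 3 counts in Tg46, 23 in Lgals7-/- and 13 in wild-type, with ratios of Tg46 to wild-type of 0.134 (0.0217 to 0.433) and of Tg46 to Lgals7-/- of 0.146 (0.0246 to 0.424). Psmd11 was the single member called between the mutants. In Lgals7-/- its ratio to wild-type was 0.914 (0.451 to 2.0). Psmd3 had 14, 10 and 9 counts in Tg46, Lgals7-/- and wild-type, was called in no comparison and overlaps Gm12356. Psmd13 stayed below 10 counts, with 9, 2 and 9 in the same order, and overlaps Sirt3. It would have met the ratio rule as lower in Lgals7-/-, at 0.138 (0.0123 to 0.564), but was not compared at these counts.

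Both base scaffold subunits had ratios above 1 in the mutants, and Psmd1 was called. Psmd1, the Rpn2 scaffold (chromosome 1, 86064387 to 86139151, plus strand), held 15 counts in Tg46, 24 in Lgals7-/- and 0 in wild-type. With the wild-type library set to 3 counts it was 2.58-fold higher in Tg46 and 4.2-fold higher in Lgals7-/-. Its exact intervals began at 1.85 and 3.16. Its exons overlap those of Htr2b on the other strand, so its counts are uncertain. Psmd2, the Rpn1 scaffold that docks ubiquitin shuttles, had 33 counts in Tg46, 43 in Lgals7-/- and 11 in wild-type. Its ratio of 1.99 in Lgals7-/- over wild-type (1.04 to 4.41) lay just under 2-fold and was called with total counts (log2 1.06) and upper-quartile factors (log2 1.2), and that of Tg46 was 1.5 (0.763 to 3.39). The ubiquitin receptor Psmd4 had 9, 3 and 3 counts in Tg46, Lgals7-/- and wild-type. The base assembly chaperones Psmd5, Psmd9 and Psmd10 stayed at 6 counts or below in every library. Leaving out Psmd7, the 13 Psmd genes summed to 138 counts in Tg46, 164 in Lgals7-/- and 58 in wild-type, with ratios to wild-type of 1.23 in Tg46 (0.896 to 1.70) and 1.48 in Lgals7-/- (1.09 to 2.04).

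Among the ATPases, Psmc1 (chromosome 12, 100110154 to 100123405, plus strand) held 9 counts in Tg46, 12 in Lgals7-/- and 0 in wild-type. With wild-type set to 3 counts it was 1.55-fold higher in Tg46 and 2.10-fold higher in Lgals7-/-. Its exact intervals began at 1.02 and 1.46, and the call in Tg46 was lost with DESeq2 factors, total counts or 5 added counts. Psmc5, the ATPase with the most counts, had 17 in Tg46, 15 in Lgals7-/- and 14 in wild-type, and its intervals included 1 in all 3 comparisons. Psmc4 had 11, 8 and 9 counts in Tg46, Lgals7-/- and wild-type and was also not called. Psmc6 stayed below 10 counts, with 2 in Tg46, 1 in Lgals7-/- and 8 in wild-type, and Psmc2 likewise with 4, 7 and 9. Both would have met the ratio rule as lower in Tg46, and Psmc6 also in Lgals7-/-, but were not compared at these counts. The Psmc group also holds Psmc3ip, a meiotic recombination factor named for its binding to Psmc3 and not a subunit, with 11, 8 and 2 counts in Tg46, Lgals7-/- and wild-type. As a group the 7 Psmc genes had 65 counts in Tg46, 59 in Lgals7-/- and 43 in wild-type, and summed ratios to wild-type of 0.779 (0.522 to 1.17) in Tg46 and 0.720 (0.478 to 1.09) in Lgals7-/-.

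The scaled sum of the 20S core genes was lower in both mutants than in wild-type, though not gene by gene. The 17 alpha and beta genes summed to 112 counts in Tg46, 81 in Lgals7-/- and 92 in wild-type. The scaled ratio to wild-type was 0.628 in Tg46 (0.472 to 0.836) and 0.462 in Lgals7-/- (0.339 to 0.630). Psma7, an alpha-ring subunit (chromosome 2, 180036374 to 180042433, minus strand), had 14 counts in Tg46 and 8 in Lgals7-/-, against 24 in wild-type. Its ratio to wild-type was 0.305 in Tg46 (0.144 to 0.605) and 0.182 in Lgals7-/- (0.0679 to 0.403). Psma5 had 5 counts in Tg46, 3 in Lgals7-/- and 11 in wild-type, and was called lower in both with ratios of 0.247 (0.0638 to 0.732) and 0.160 (0.0256 to 0.542). Its exons overlap 1700010K24Rik. The 6 other alpha genes summed to 43 counts in Tg46, 27 in Lgals7-/- and 16 in wild-type, and the intervals of their ratios to wild-type, 1.39 (0.765 to 2.64) and 0.886 (0.460 to 1.76), included 1. That split of the alpha genes was chosen after their values were seen. Psma4, with the second most alpha counts, had 18 in Tg46, 11 in Lgals7-/- and 6 in wild-type and was not called; its exons overlap AY074887.

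The beta genes summed to 50 counts in Tg46, 43 in Lgals7-/- and 41 in wild-type, with scaled ratios to wild-type of 0.629 (0.408 to 0.974) and 0.550 (0.350 to 0.866). Psmb7, the beta subunit with the trypsin-like site, had 11 counts in Tg46, 8 in Lgals7-/- and 12 in wild-type, and was called lower in Lgals7-/- at 0.357 (0.124 to 0.931). Its exons overlap those of Nek6. Psmb11, the beta subunit of the thymic proteasome, had 16 counts in Tg46, 6 in Lgals7-/- and 11 in wild-type, with a ratio of 0.297 in Lgals7-/- (0.0869 to 0.845) and 0.740 in Tg46 (0.327 to 1.79). Psmb10, the immunoproteasome counterpart of Psmb7, had 8, 14 and 5 counts in Tg46, Lgals7-/- and wild-type. The immunoproteasome genes outside the set, Psmb8 and Psmb9, had 4, 6 and 3 counts and 3, 2 and 0 counts in the same order of libraries. The standard catalytic subunits Psmb5 and Psmb6 held at most 4 counts anywhere.

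Activators and the inhibitor differed little as a group, with 98 counts in Tg46, 108 in Lgals7-/- and 48 in wild-type over 7 genes. Their summed ratio to wild-type was 1.05 in Tg46 (0.738 to 1.52) and 1.18 in Lgals7-/- (0.833 to 1.70). Psme1, the alpha subunit of the interferon-inducible activator PA28, had 41 counts in Tg46, 37 in Lgals7-/- and 12 in wild-type and was not called, at 1.71 (0.908 to 3.68) and 1.57 (0.825 to 3.41) over wild-type. Its exons overlap those of Emc9 over 14 bases. Its partner Psme2 had 2, 8 and 4 counts in Tg46, Lgals7-/- and wild-type, and reads could be shared with the single-exon gene Psme2b, at 2, 1 and 1. Psme4, the nuclear activator PA200 (chromosome 11, 30771726 to 30880361, plus strand), had 22 counts in Tg46, 32 in Lgals7-/- and 4 in wild-type. It was called higher in Lgals7-/- at 3.79 (1.49 to 16.3), while the interval in Tg46, 2.58 (0.963 to 11.3), included 1. Between the mutants the Psme4 ratio was 0.680 (0.374 to 1.2), which includes 1. Psme3ip1, a partner of the activator Psme3 and not a subunit, had 9 counts in Tg46, 9 in Lgals7-/- and 14 in wild-type, and was called lower in both at 0.338 (0.127 to 0.822) and 0.344 (0.129 to 0.837). It overlaps Rspry1. The inhibitor Psmf1 had 11, 9 and 3 counts in Tg46, Lgals7-/- and wild-type. The 4 assembly chaperone genes summed to 26, 17 and 9 counts in these libraries, and none reached 10. Psmg1 had 6, 6 and 3, and Psmg2 had 7, 6 and 6.

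**Figure D5:**
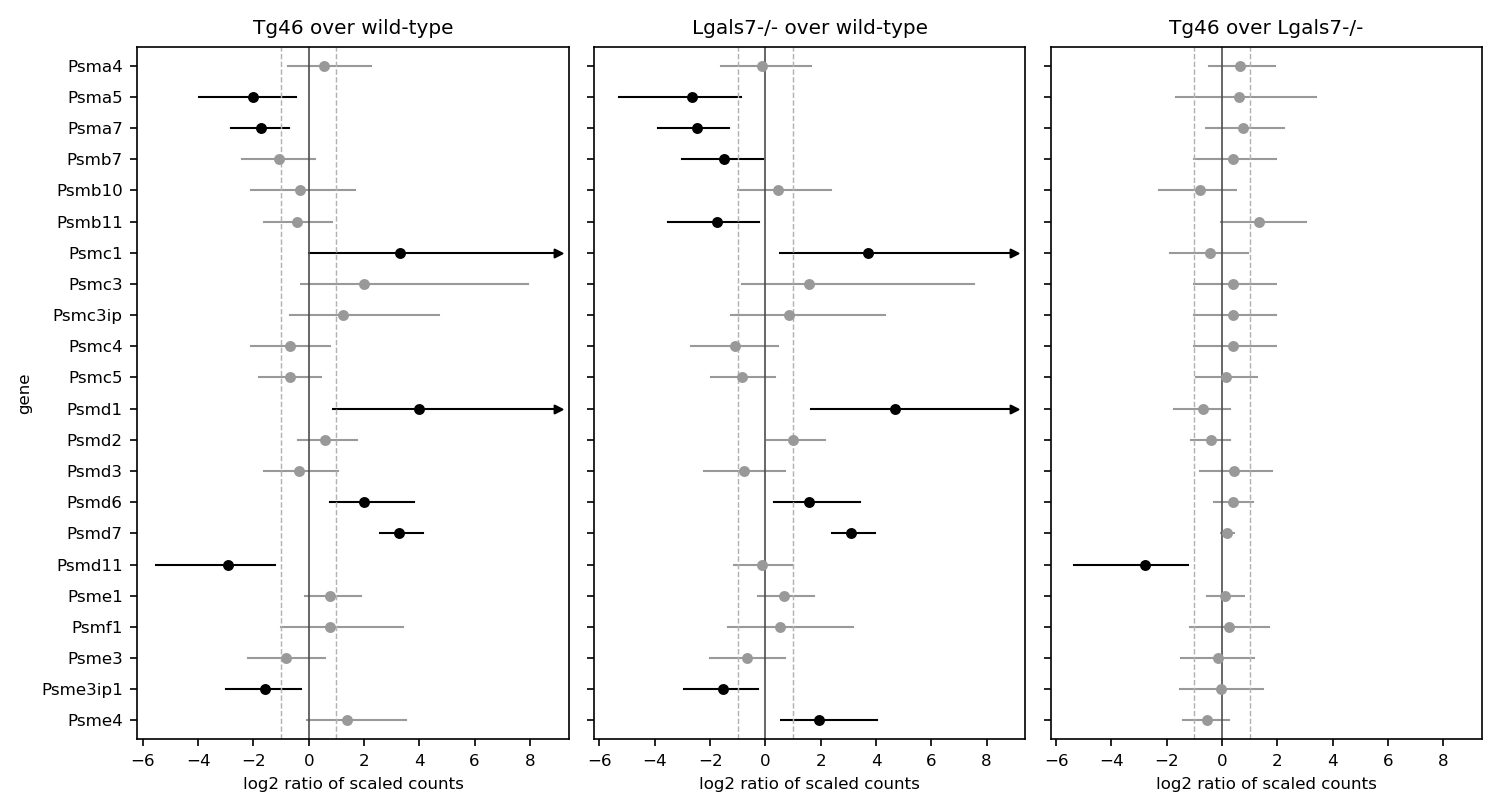
Log2 ratios of the 22 compared members are shown with exact 95% intervals for Tg46 over wild-type, Lgals7-/- over wild-type and Tg46 over Lgals7-/-. Black marks members called at 2-fold or more, grey the rest, dashed lines 2-fold, and arrows intervals with no upper end because wild-type held 0 counts. Psmd7 has the narrowest interval, and Psmd11 is the only black point between the mutants.

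Some other genes of the ubiquitin-proteasome pathway were described by 2 chosen lists, which do not cover the whole pathway. For all genes, 13.7% were called higher and 13.9% lower in Tg46 over wild-type, 13.3% and 13.7% in Lgals7-/- over wild-type, and 8.43% and 7.73% in Tg46 over Lgals7-/-, so counts of 1 or 2 among 10 or 11 genes are near the background. Of 13 partner and regulatory genes found in the table, 11 were compared, and 0 were called in Tg46 over wild-type. In Lgals7-/- over wild-type 1 was called higher and 1 lower, and in Tg46 over Lgals7-/- 2 higher. Nfe2l2, a transcription factor that drives proteasome and antioxidant genes, had 10 counts in Tg46, 14 in Lgals7-/- and 1 in wild-type. Ngly1, an enzyme that activates the related factor Nfe2l1, had 12, 3 and 9, and its exons overlap those of Oxsm. The summed ratio of the 13 to wild-type was 1.05 in Tg46 (0.856 to 1.30) and 0.789 in Lgals7-/- (0.633 to 0.987). Of 16 ubiquitin, activating enzyme and shuttle genes, 10 were compared. Against wild-type 1 was called higher and 1 lower in Tg46, and 2 higher and 1 lower in Lgals7-/-. In Tg46 over Lgals7-/- 1 was called higher and 1 lower. Uba1, the main ubiquitin-activating enzyme, had 25 counts in Tg46 and 8 in Lgals7-/-, against 27 in wild-type, with ratios to wild-type of 0.478 (0.266 to 0.854) and 0.162 (0.0611 to 0.352). Uba6, the other activating enzyme, had 8, 29 and 6 counts in Tg46, Lgals7-/- and wild-type.

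Genes of the COP9 signalosome and eIF3, complexes built on the same MPN and PCI folds as the lid, were set beside it with 4 related deubiquitinases. Of 26 found, 17 were compared. In Tg46 over wild-type 1 was called higher and 4 lower, in Lgals7-/- over wild-type 1 higher and 2 lower, and in Tg46 over Lgals7-/- 0 higher and 2 lower. The shares of all genes called were 13.7% higher and 13.9% lower in Tg46 over wild-type, and 13.3% and 13.7% in Lgals7-/- over wild-type. In Tg46 over Lgals7-/- they were 8.43% and 7.73%. Brcc3, a deubiquitinase with an MPN domain, had 11 counts in Tg46, 7 in Lgals7-/- and 0 in wild-type. With wild-type set to 3 counts it was 1.89-fold higher in Tg46, and its exact interval began at 1.29. Eif3d had 3, 6 and 12, with ratios to wild-type of 0.144 in Tg46 (0.0233 to 0.478) and 0.273 in Lgals7-/- (0.0808 to 0.756), and overlaps Gm17638. Eif3f and Eif3h, the MPN-domain subunits of eIF3, had 3, 4 and 2 and 8, 11 and 3 counts in Tg46, Lgals7-/- and wild-type. No gene of these 3 lists reached the Psmd7 counts in either mutant.

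Keratinocyte markers summed higher in both mutants than in wild-type, though not gene by gene. Of the 8 keratinocyte markers 7 were compared, and against wild-type 5 were called higher in Tg46 and 3 in Lgals7-/-, with 0 lower, where 13.7% and 13.3% of all genes were called higher. Their sums correspond to 1507 CPM in Tg46, 1367 CPM in Lgals7-/- and 706 CPM in wild-type, ratios to wild-type of 2.13 (1.75 to 2.62) and 1.94 (1.58 to 2.38). None of the 8 was at 0 in any library. Krt1, a suprabasal keratin, had 156, 132 and 21 counts in Tg46, Lgals7-/- and wild-type. Trp63, the transcription factor of basal keratinocytes, had 21, 18 and 17, with ratios to wild-type below 1 of 0.633 (0.320 to 1.29) in Tg46 and 0.555 (0.270 to 1.15) in Lgals7-/-. Lor, the cornified envelope protein loricrin, had 7, 5 and 8 and was not compared. The markers' part in the Psmd7 values was not tested. Fibroblast, endothelial and leukocyte marker sums had ratios to wild-type of 1.15, 1.07 and 0.786 in Tg46 and 1.03, 1.11 and 0.637 in Lgals7-/-. The interval of the leukocyte ratio in Lgals7-/- was 0.448 to 0.909, and the intervals of the other ratios included 1. The B cell marker Ms4a1 had 3, 0 and 8 counts in Tg46, Lgals7-/- and wild-type, and the T cell marker Cd3g had 3, 0 and 3. Another T cell marker, Cd3e, had 8, 8 and 10, and its exons overlap Gm48719. The 0 of Cd3g in Lgals7-/- therefore does not show that T cells were absent. The 4 skeletal muscle markers summed to 46, 45 and 34 counts in Tg46, Lgals7-/- and wild-type. Their scaled ratios to wild-type were 0.697 in Tg46 (0.438 to 1.12) and 0.695 in Lgals7-/- (0.435 to 1.12). The melanocyte genes Tyr, Dct and Mlana summed to 18, 16 and 5, at ratios of 1.86 (0.664 to 6.39) and 1.68 (0.588 to 5.86). Pmel, whose exons overlap Cdk2 and Dgka, had 624, 257 and 207. The Pmel ratio to wild-type was 1.55 in Tg46 (1.33 to 1.83) and 0.651 in Lgals7-/- (0.541 to 0.786).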

How the data were processed

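The deposited file holds 1 integer count for each Entrez gene in each of the 3 libraries. The submitters' processing notes name mm10; for the aligner, counting tool, annotation and strand setting of the authors, nothing is stated in the sources used here. Per the labels' protocols, RNA from 3 pooled tumours per genotype was extracted with TRIzol and RNeasy columns. Of 24028 identifiers, 23968 matched a RefSeq symbol and 23708 a GENCODE M21 gene model (GRCm38, the same assembly as mm10), which gave positions, merged exon lengths and overlaps.

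Library sizes were multiplied by TMM factors from edgeR 4.0.16 (0.945 in Tg46, 1.05 in Lgals7-/- and 1.00 in wild-type; R 4.3.3) computed on the 12940 genes with at least 10 counts in a library. Ratios had 0.5 counts added to each library, with Clopper-Pearson 95% intervals of the pair of counts; summed ratios had none added. With 1 library per genotype the planned design holds no test and no p-value is given: a call compares 2 libraries, not conditions. A library at 0 was set to 3 counts for the fold given, which leaves out the counting error of the other library. The interval code was tested on simulated counts.

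The set, the gene lists and the named-gene rule were chosen with earlier results of these data known. The rule took Psmd7, the 2 members with the most counts in each name group, up to 4 called members of each, and up to 2 called genes of each other list; further genes, named for their role or for a low value, were chosen after their values were seen. The scaling was also done by upper quartile, by total counts and by size factors of DESeq2 1.42.0. Other settings tried were 5 added counts, a minimum of 30 summed counts or none, a fold-only and a stricter interval rule, removal of genes overlapped on the other strand, and the set without Psmd7. Python 3.11.15, numpy 2.4.6, scipy 1.17.1, pandas 2.3.3 and matplotlib 3.10.9 were used.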

Additional observations from a re-analysis of the deposited data

How the results depend on the processing

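No paired analysis was possible because there is a single library for every genotype. Psmd7 was called higher than wild-type under every scaling, added count and call rule tried, with log2 ratios of 2.94 to 3.51 in Tg46 and 2.76 to 3.30 in Lgals7-/-, and it was called in no setting between the mutants. Of 324 recomputed ratios of named members, 297 kept their status, 19 lost a call and 8 gained one. Ratios called in neither setting are among the 297. Of the ratios called in the main setting, 0 changed direction, and a change of sign in an uncalled ratio was not counted. Psmc1 in Tg46 over wild-type lost its call with DESeq2 factors, total counts and 5 added counts, and Psmb7 in Lgals7-/- with upper-quartile factors. With 5 counts added, Psmc1 and Psmd6 in Lgals7-/- also lost theirs. Of 66 recomputed counts of members called, 57 stayed within 1.5 times. Those that did not were as follows. With 5 counts added 3 were higher in Lgals7-/- than in wild-type. By fold alone, 7 members were higher in Tg46 over wild-type and 1 in Tg46 over Lgals7-/-. Requiring the entire interval to pass 2-fold, wild-type comparisons kept 1 higher and 1 lower member for Tg46, and 2 higher and 1 lower for Lgals7-/-. Of the 13 members free of overlap on the other strand, 2 were lower in Tg46 and 2 in Lgals7-/-. Member medians stayed inside the order-statistic interval of the median under all alternatives, an interval from -0.82 to 1.37 in Tg46 and -1.09 to 1.57 in Lgals7-/- over wild-type, but changed sign against wild-type without a filter (-0.22 and -0.11), with 30 summed counts (-0.35 and -0.13) and with 5 counts added (-0.24 and -0.21), in Tg46 and Lgals7-/-. Without opposite-strand overlaps the Tg46 median was -0.33. Leaving out Psmc3ip and Psme3ip1, an alternative added after the data had been seen, kept every member count within 1.5 times.

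Over all genes, in the order Tg46 over wild-type, Lgals7-/- over wild-type and Tg46 over Lgals7-/-, the filter of 30 summed counts, which tests fewer genes, left 1140, 994 and 680 higher and 1110, 1073 and 523 lower. With 5 counts added 658 and 584 were higher against wild-type. By fold alone 3307, 3269 and 1808 were higher, and for the third comparison 1653 lower. Requiring the entire interval to pass 2-fold kept 266, 235 and 147 higher with 449, 449 and 86 lower. Removing genes overlapped on the other strand, which also tests fewer genes, gave 1071 higher for Tg46 over wild-type and 593 for Tg46 over Lgals7-/-. Scaling moved the median log2 ratio of all genes, for example to 0.35 in Tg46 and 0.31 in Lgals7-/- over wild-type with upper-quartile factors. The depth limits the 27 members under 10 counts in every library, which were not compared singly.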
